A study of Homo sapiens with 12 samples.

Results

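The 1523 genes described here have a proximal and a distal 3′ end: they are protein-coding, at least 2 of their rows in the count table belong to transcripts whose annotated 3′ ends lie at least 1000 bases apart, the last exons of those transcripts do not overlap, and each row holds at least 600 counts over the 12 libraries. They were found among 19729 protein-coding genes with a placed row, of which 8873 had a row with at least 600 counts and 6312 had 2 different annotated ends with that many. In each gene the most upstream such end was set against the most downstream one. In some genes, such as POLR1C and GCC2, the downstream end compared is not the last annotated end of the gene. Members were selected on annotated positions and on counts summed over all groups, so those totals are a description and not a result. Just inside the minimum were ACADM with 600 counts at its weaker end and ACIN1 and EHBP1L1 with 601, and just outside were SELENOW with 599, BTAF1 with 596 and NSF with 595. Counted without the DMSO libraries and scaled back to 12, the upstream row of 101 genes fell below the minimum, against 97 without THZ531, 31 without YKL5124 and 11 without AZ5576. Among the genes below without THZ531 were MED13, MVB12B, TUBGCP3, PMS1, KHDC4, RBBP6, PRDM2, AGO3 and ELF2, all described below. They are members through the group in which their upstream row was highest, so their THZ531 shifts are not independent of the selection.

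The cells were THP-1, an acute myeloid leukaemia line of monocytic type that carries a fusion of MLL (KMT2A) with AF9, and every result comes from this 1 line. There were 4 groups of 3 libraries: cells given the vehicle DMSO, AZ5576, THZ531 or YKL5124 for 2 hours, all with 1 mM 4-thiouridine in the last 10 minutes and 5% Drosophila S2 material added to the RNA. The labels state no dose and do not tell whether the 3 libraries of a group are separate cultures, so the p-values below describe the spread between libraries, which may be technical. The DMSO libraries are the 3 columns headed UT in the table, a name the labels do not explain, and comparisons between inhibitors are free of that assumption. Counting 1 row per gene, the libraries held 5033179 to 12707726 human counts (AZ5576 replicate 2 was the shallowest), and fly rows held 8.66% to 11.2% of human and fly counts together. Of 15 genes fixed as markers of a monocytic leukaemia line, 14 had a median of at least 1 CPM (counts scaled to library size with TMM factors), with a summed level of 1116 to 1803 CPM, and MEIS1 did not. All 4 erythroid markers were at 0 in every library, and the 6 epithelial and stromal markers summed to between 0 and 1.20 CPM.

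Most human genes can end their mRNA at more than 1 place. Cleavage and polyadenylation machinery recognises a signal hexamer, most often AATAAA, and a set of flanking elements, and when it acts on a signal inside an intron the transcript is cut short before the distal exons. The kinases named here act on RNA polymerase II: CDK7 in the initiation factor TFIIH, CDK9 in P-TEFb, which releases paused polymerase, and CDK12 and CDK13 with cyclin K during elongation. The compounds are described as selective for these kinases: YKL5124 binds CDK7, THZ531 binds CDK12 and CDK13, and AZ5576 blocks CDK9. Loss of CDK12 activity is known for premature polyadenylation in introns of long genes, among them genes of homologous recombination. Libraries were primed from poly(A), so a row counts reads near a polyadenylated 3′ end, and a read can also start at an A-rich stretch within a transcript.

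The sequences at the ends of 7 genes described below are shown as examples, and no call rests on them. Each is 30 bases of the annotated transcript, read 5′ to 3′ on the RNA strand as DNA letters, from GENCODE v29 on GRCh38. Capitals mark AATAAA or ATTAAA where 1 of them lies in the last 40 bases of the transcript, and a sequence in lower case throughout holds neither there. The first 5 genes gained share at the upstream end under THZ531, and PRDM2 and AGO3 lost it under AZ5576 and YKL5124.
DIDO1 upstream end (chr20:62905006-62905035, minus strand): gttttctgctataaaactattttcaattca
DIDO1 downstream end (chr20:62877738-62877767, minus strand): gcagtagAATAAAcagctacaggaagtttc
MED13 upstream end (chr17:62010427-62010456, minus strand): atttacaagAATAAAttcattgagtattaa
MED13 downstream end (chr17:61942605-61942634, minus strand): aaatggAATAAAttattcatgaagccttca
PMS1 upstream end (chr2:189807025-189807054, plus strand): atATTAAAttattggattctttttttcaaa
PMS1 downstream end (chr2:189877599-189877628, plus strand): aaaacgtaAATAAActaatatagactattc
CSTF3 upstream end (chr11:33141465-33141494, minus strand): cttttacaagctgatgattgttgcattttg
CSTF3 downstream end (chr11:33084584-33084613, minus strand): tcctttaaaaAATAAAaggattcagaaaca
RUNX1 upstream end (chr21:34832961-34832990, minus strand): ggaaaatttccaAATAAAtctttccagaag
RUNX1 downstream end (chr21:34787802-34787831, minus strand): AATAAAcagtttgacaagtacatacaccat
PRDM2 upstream end (chr1:13788030-13788059, plus strand): ttaaacaatgcattttatattattgtaacc
PRDM2 downstream end (chr1:13825047-13825076, plus strand): AATAAAagtgtgaagagcgattgtgaggaa
AGO3 upstream end (chr1:35983380-35983409, plus strand): tgaacaacatagtgagacctgatctctacc
AGO3 downstream end (chr1:36072471-36072500, plus strand): tgcAATAAAaagaaaagctttgctcttaaa
Every one of the 7 downstream ends has a hexamer, and 3 of the 7 upstream ends do. The windows stop at the annotated end, except for the downstream ends of RUNX1 and PRDM2, where they stop just short of it so that the hexamer is shown. No genome sequence beyond the ends was used here.

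The annotated ends lay 1002 to 897848 bases apart over the 1523 members (median 14931). In DMSO the upstream end held a median of 23.5% of the counts of the pair. The upstream transcript was annotated as a retained intron in 655 of the 1523 genes, as a processed transcript in 382, as protein-coding in 356, as a target of nonsense-mediated decay in 125 and as TEC, a class awaiting experimental evidence, in 5. Upstream ends fell in an intron of the downstream transcript in 897 of 1520 genes, in one of its exons in 484 and before its start in 139. AATAAA or ATTAAA stood in the last 40 bases of 20.1% of upstream ends and 78.8% of downstream ends, against 30.2% of all 206635 GENCODE v29 transcripts of at least 40 bases. Among upstream ends in an intron the share was 26.3%, and among those in an exon of the downstream transcript 5.17%. In 408 genes (26.8%) an end overlapped an exon of another gene, and since the strand setting of the counting is not given in the sources used here, reads of the 2 genes cannot be told apart there. Of the 1523 members 3, GATD3A, SLC29A1 and ZHX1-C8orf76, had identical counts at both ends in all libraries and were not tested.

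THZ531 moved counts toward upstream ends. The upstream share, as a median over genes, was 31.1, 29.9 and 29.9% in THZ531 replicates 1 to 3, against 24.3, 24.3 and 22.7% in DMSO. It was 21.6, 20.5 and 21.7% in AZ5576 and 23.1, 23.6 and 21.9% in YKL5124. The THZ531 libraries all lay above the other 9, the AZ5576 libraries lay below all DMSO libraries, and YKL5124 overlapped DMSO. The size of the THZ531 difference depends on the selection, whose counts include THZ531. It was 6.52 points for these genes and 3.49 points where pairs were chosen on at least 150 counts per end in DMSO. Pooling the counts of all pairs, so that abundant genes dominate, the upstream share was 16.4 to 17.0% in THZ531, 15.3 to 16.6% in DMSO, 14.4 to 15.9% in YKL5124 and 13.9 to 14.4% in AZ5576, and THZ531 then overlapped DMSO.

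**Figure D1:**
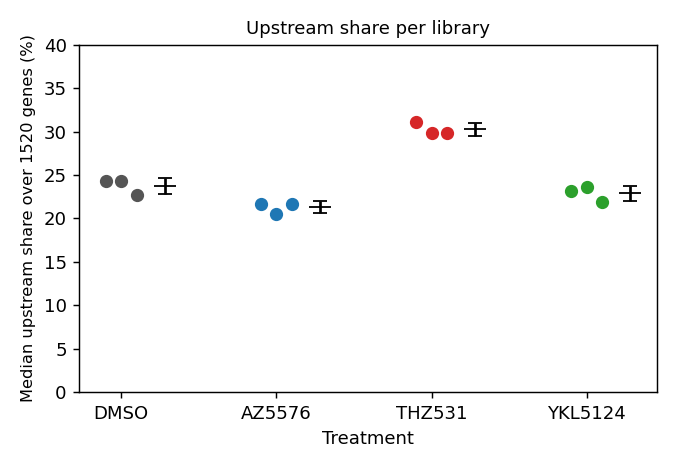
Median upstream share (percent of a pair's counts, y axis) over 1520 genes in each of the 12 libraries, by treatment (x axis). Points are libraries and the bar beside them is the group mean with its SD (n = 3). The THZ531 libraries lie at 29.9 to 31.1%, above the other 9.

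The test asked, for each gene, whether the log2 ratio of upstream to downstream counts differed between 2 groups (edgeR's quasi-likelihood test, Benjamini-Hochberg adjusted over 3852 pairs of ends of all gene types, threshold 0.05). A positive change is a shift toward the upstream end. Under THZ531 against DMSO 515 of 1520 members (33.9%) shifted upstream, where 32.0% of all tested pairs did, and 156 (10.3%) shifted downstream, where 8.59% did. The share of members is thus near that of all pairs, and 308 of the 515 upstream and 40 of the 156 downstream shifts were 2-fold or larger. The median change was 0.15 over members and 0.22 over all pairs. In 513 of the 515 genes the 3 THZ531 libraries did not overlap the 3 DMSO libraries. The downstream share was 6.58% without DMSO replicate 2, 6.38% without THZ531 replicate 2 and 6.12% without THZ531 replicate 3.

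AZ5576 went the other way. Against DMSO 256 members (16.8%) shifted toward the downstream end, beside 17.4% of all pairs, and 59 (3.88%) toward the upstream end, beside 2.73%. The median change was -0.13 over members and -0.18 over all pairs. YKL5124 did so in fewer genes: 128 members (8.42%) shifted downstream, beside 7.58% of all pairs, and 41 (2.70%) upstream, beside 1.84%, with medians of -0.04 and -0.09. Upstream shares this small fell when some libraries were left out: for AZ5576 it was 2.50% without DMSO replicate 3, 2.37% without AZ5576 replicate 1 and 2.50% without AZ5576 replicate 3, and for YKL5124 1.64% without DMSO replicate 3. In 52 of the 59 genes for AZ5576 and 40 of the 41 for YKL5124, the inhibitor libraries did not overlap the DMSO libraries. These 3 comparisons share the DMSO libraries, so that their values stand side by side without a measure of overlap.

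**Figure D2:**
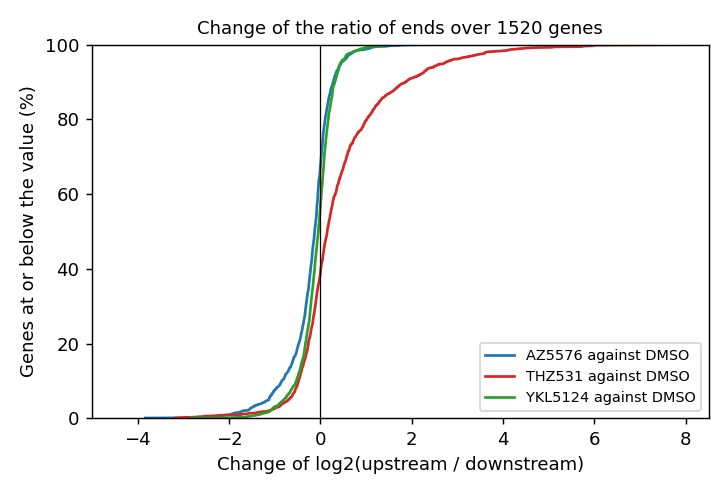
Cumulative percent of the 1520 genes (y axis) by change of the log2 ratio of upstream to downstream counts against DMSO (x axis), 1 line per inhibitor. The THZ531 line runs to 8.23 on the right, and the medians are 0.15 for THZ531, -0.13 for AZ5576 and -0.04 for YKL5124.

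The inhibitors were also compared with each other in the same fit of all 12 libraries, where DMSO enters only the shared estimate of the spread. Relative to THZ531, AZ5576 shifted 612 members (40.3%) downstream and 72 (4.74%) upstream, beside 39.5% and 3.58% of all pairs. Relative to YKL5124, THZ531 shifted 571 (37.6%) upstream and 135 (8.88%) downstream, beside 36.5% and 7.19% of all pairs. AZ5576 and YKL5124 differed in fewer genes: 88 members (5.79%) lay further downstream under AZ5576, beside 5.79% of all pairs, and 19 (1.25%) further upstream, beside 0.883%. Leaving out 1 library moved some of these shares. Further downstream under AZ5576 than under YKL5124 were 3.55% without AZ5576 replicate 1, 3.55% without YKL5124 replicate 2 and 3.75% without YKL5124 replicate 3. Further upstream were 0.658% without AZ5576 replicate 3, 0.658% without YKL5124 replicate 2 and 0.789% without YKL5124 replicate 3. AZ5576 stood upstream of THZ531 in 3.16% without THZ531 replicate 3, and THZ531 downstream of YKL5124 in 5.66% without YKL5124 replicate 1.

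A shift of the ratio can come from either end, so each end was also tested on its own level (edgeR's quasi-likelihood test over 49440 rows, TMM scaling, so that a change is relative to the middle of human genes). Of the 515 upstream shifts under THZ531, 197 had a higher upstream and a lower downstream end, 115 a higher upstream end alone, 82 a lower downstream end alone, 69 both ends higher and 50 both lower. Their median log2 fold change was 0.72 at the upstream and -0.52 at the downstream end. Over all rows, 30.0% were higher and 27.4% lower under THZ531. Of the 256 downstream shifts under AZ5576, 119 had a lower upstream end alone, 54 a lower upstream and a higher downstream end, and 49 a higher downstream end alone (medians -0.80 and 0.17). Of the 128 downstream shifts under YKL5124, 79 had a lower upstream end alone and 25 a higher downstream end alone (medians -0.70 and 0.13). The background over rows was 13.1% higher and 18.4% lower for AZ5576, and 3.63% and 10.6% for YKL5124.

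Levels, unlike ratios, depend on the scaling. Scaled to fly counts, the median row moved by -0.31 under THZ531, -0.15 under AZ5576 and -0.07 under YKL5124, and by library size alone by -0.24, -0.10 and -0.02. Of the rows called under THZ531, 52.3% were higher with TMM, 16.8% with fly scaling and 27.1% with library size alone. For AZ5576 these shares were 41.6%, 8.51% and 21.2%, and for YKL5124 25.6%, 18.5% and 27.8%. RLE size factors gave 53.9%, 48.5% and 40.5% for THZ531, AZ5576 and YKL5124.

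**Figure D3:**
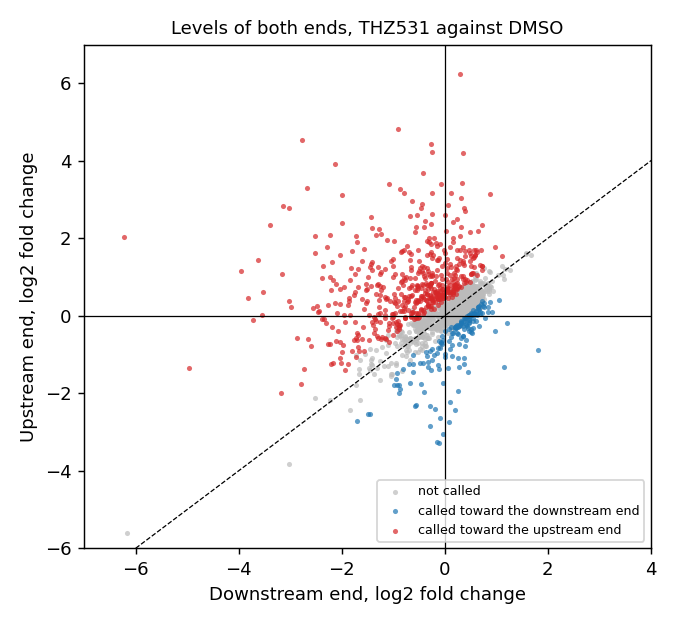
Log2 fold change of the downstream end (x axis) and of the upstream end (y axis) under THZ531 against DMSO, 1 point per gene (n = 1520), coloured by the call on the ratio; the dashed line marks equal change. Of the genes called toward the upstream end, 197 had a higher upstream and a lower downstream end.

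Under THZ531, genes whose ends lay farther apart held a larger share of upstream shifts. The classes given here and below were described and not tested against each other. They include genes whose upstream row fell below the minimum without THZ531, of which there were 97 among all members. The THZ531 shares are thus not independent of the selection, and no class was recounted with pairs chosen without THZ531 counts. With 1 to 5 kb between the ends, 12.3% of 309 genes shifted upstream and 15.2% downstream. At 5 to 20 kb 27.2% of 567 genes shifted upstream, at 20 to 60 kb 42.3% of 447, and over 60 kb 68.0% of 197, where 4.06% shifted downstream. The median change in these classes was -0.13, 0.07, 0.34 and 0.99. Median total counts went from 1446 at 1 to 5 kb to 1145 over 60 kb at the upstream end and from 7390 to 2576 at the downstream end, so the class called most often was the shallowest. Under AZ5576 11.97% shifted downstream at 1 to 5 kb and 23.4% over 60 kb, and under YKL5124 7.12% and 11.7%.

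**Figure D4:**
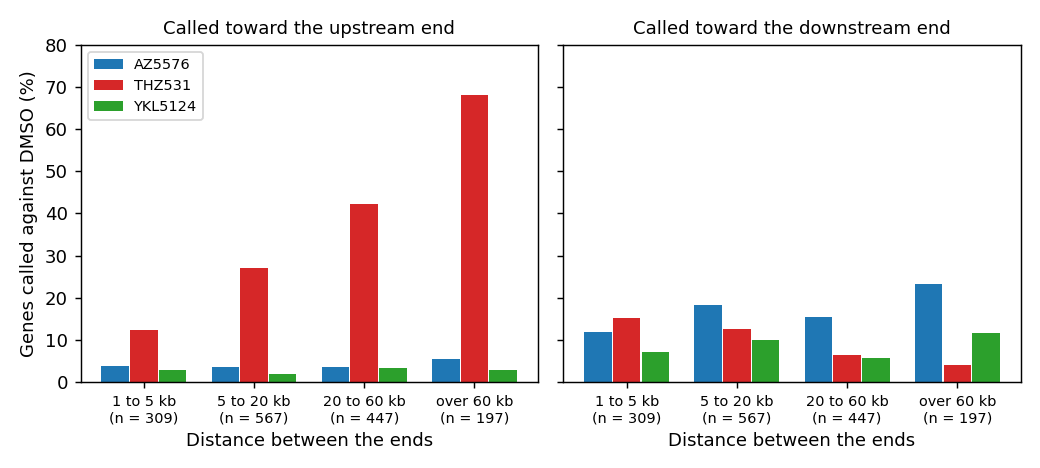
Percent of genes called against DMSO (y axis) toward the upstream end (left) and the downstream end (right) by distance between the 2 ends (x axis, with the number of genes), 1 bar per inhibitor. Under THZ531 upstream calls go from 12.3% at 1 to 5 kb to 68.0% over 60 kb.

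Gene length and position went with the shift as well, and both are tied to distance. Under THZ531 18.3% of genes shorter than 20 kb and 49.3% of genes longer than 150 kb shifted upstream. Where the upstream end lay in the first 25% of the gene 43.5% did, and in the last 25% of it 22.4%. By place, 40.2% of upstream ends in an intron and 41.7% of those before the start of the downstream transcript shifted upstream, against 19.8% of those in an exon of it. For AZ5576, 23.0% of intronic and 4.55% of exonic upstream ends shifted downstream.

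A row that lies in an exon of the downstream transcript can take up reads from that transcript. Where the upstream row shared no base with those exons, 55.0% of 429 genes shifted upstream under THZ531 and 27.7% shifted downstream under AZ5576. Where every base was shared, the figures were 20.0% and 4.31% of 441 genes. Among the 429 genes the share by distance under THZ531 was 29.9% at 1 to 5 kb, 48.7% at 5 to 20 kb, 75 of 125 genes at 20 to 60 kb, and 79.5% over 60 kb.

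The polyadenylation hexamer also differed in frequency between genes that shifted and genes that did not, again as a description. AATAAA or ATTAAA, searched on the RNA strand in the last 40 bases of the transcript, stood at 34.4% of the upstream ends that gained share under THZ531 and at 41.9% of those that gained 2-fold or more. It stood at 11.5% of those not called and at 19.9% of those that lost share. Read the other way, 177 of 306 upstream ends with a hexamer (57.8%) gained share under THZ531, with a median change of 0.72, and 338 of 1214 without one (27.8%), with a median of 0.08. The match is a description of letters in a window, and it goes with place, since few exonic upstream ends have one. Both sets include ends that reached the minimum through THZ531, with a hexamer in MED13 and PMS1 and without one in PRDM2 and AGO3. The shares that gained under THZ531 are thus not independent of the selection.

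The largest fitted shift was in DIDO1, a chromatin-reading protein gene (minus strand, chr20, 62877738 to 62937952, GRCh38), whose upstream end lies in an intron 27268 bases before the distal one. Its upstream share was 99.6, 99.7 and 99.7% in the 3 THZ531 libraries and 49.8, 46.0 and 42.5% in DMSO, 33.3, 37.9 and 31.4% in YKL5124 and 36.7, 20.8 and 33.3% in AZ5576. The upstream row stood at 9.11, 7.65 and 7.77 CPM in DMSO and 32.3, 31.8 and 36.1 in THZ531, and the downstream row at 9.19, 8.98 and 10.5 and 0.13, 0.111 and 0.108. Both ends therefore moved, in opposite directions, and the change of the log2 ratio was 8.23 (SE 0.37, adjusted p = 7.14e-17). The downstream row of DIDO1 held 3 counts over the 3 THZ531 libraries, against 868 upstream, so the log2 ratio of the pooled counts was 8.18 with an exact binomial (Clopper-Pearson) 95% interval of 6.62 to 10.5, which covers counting error only, and the fitted size is no better known than that. No hexamer lies in the last 40 bases of its annotated upstream transcript.

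MED13 encodes a subunit of the Mediator kinase module (minus strand, chr17, 61942605 to 62065282), and its intronic upstream end lies 67822 bases before the distal end. Its share was 6.17, 4.31 and 5.71% in DMSO and 76.3, 79.4 and 82.4% in THZ531, while AZ5576 gave 4.25, 0.51 and 3.45% and YKL5124 3.23, 3.14 and 2.88%. The upstream row was at 2.71, 1.62 and 2.40 CPM in DMSO and 29.7, 36.4 and 38.5 in THZ531, and the downstream row at 41.2, 36.0 and 39.6 and 9.26, 9.44 and 8.20. The change under THZ531 was 6.06 (SE 0.22, adjusted p = 1.38e-18), with AATAAA shortly before both ends.

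PMS1, a DNA mismatch repair gene (plus strand, chr2, 189784085 to 189877629), went from 17.6, 19.4 and 15.4% in DMSO to 92.8, 95.7 and 91.1% in THZ531, a change of 5.98 (SE 0.30, adjusted p = 8.29e-16). It also shifted upstream under AZ5576 (31.0, 34.6 and 33.3%, change 1.20, adjusted p = 0.00467) and under YKL5124 (25.8, 35.2 and 33.1%, change 1.13, adjusted p = 0.0122). With DESeq2 the YKL5124 change was as large but missed the threshold (1.13, adjusted p = 0.053). RBBP6 encodes a protein of the 3′ end cleavage complex (plus strand, chr16, 24537693 to 24572863), and its upstream share was 12.3, 10.7 and 10.2% in DMSO, 10.5, 9.24 and 6.22% in YKL5124, 6.00, 7.79 and 6.92% in AZ5576 and 84.0, 87.6 and 89.5% in THZ531. Its upstream row rose by 2.78 (adjusted p = 3.34e-16) and its downstream row changed by -3.02 (adjusted p = 1.65e-17) on the log2 scale, and the ratio by 5.78 (SE 0.23, adjusted p = 8.11e-18). The AZ5576, DMSO and YKL5124 libraries of RBBP6 all lay at or below 12.3%.

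The other genes with the largest upstream shifts under THZ531 had intronic upstream ends. MVB12B, a subunit of the ESCRT-I sorting complex, went from 4.38, 7.47 and 2.88% to 87.5, 89.3 and 90.0%, a change of 7.32 (SE 0.25, adjusted p = 2.12e-19). TUBGCP3, of the gamma-tubulin complex that nucleates microtubules, went from 2.47, 2.06 and 0.881% to 54.4, 51.9 and 54.8%, a change of 5.99 (adjusted p = 9.71e-19). KMT5B, a histone H4 lysine methyltransferase, went from 21.8, 26.3 and 19.0% to 87.9, 90.7 and 93.8%, a change of 5.11 (adjusted p = 8.27e-15). In none of the 3 did the THZ531 and DMSO libraries overlap. KHDC4, an RNA-binding protein gene, went from 2.84, 2.81 and 1.72% to 61.5, 60.8 and 59.1% (change 5.94, adjusted p = 6.86e-17), with the upstream row higher by 6.25 on the log2 scale. Its upstream row held 16 counts over the 3 DMSO libraries. The log2 ratio of the pooled DMSO counts was -5.38, with an exact binomial 95% interval of -6.19 to -4.66. With ends of at least 120 counts another pair of rows stood for KHDC4, and its change was 0.71 (adjusted p = 0.0552). MED13, PMS1, RBBP6, MVB12B, TUBGCP3 and KHDC4 are members through their THZ531 counts, so their THZ531 changes and p-values are not independent of the selection.

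Shifts toward the downstream end under THZ531 were smaller. SPG7, a mitochondrial protease gene, fell from 16.5, 16.6 and 16.9% to 2.84, 1.69 and 2.33% (change -3.10, adjusted p = 3.14e-12). The upstream row of SPG7 held 28 counts over the 3 THZ531 libraries (2.26% of the pair, exact binomial 95% interval 1.51 to 3.25%). With the 2 ends that hold the most counts in place of the outermost ones, the change of SPG7 was 0.11 (adjusted p = 0.66). MPV17, for a protein of the inner mitochondrial membrane, fell from 45.2, 43.3 and 42.0% to 11.1, 9.65 and 8.60% (change -2.81, adjusted p = 1.59e-09). NUP210, a nuclear pore glycoprotein gene, fell from 13.1, 15.0 and 13.9% to 2.95, 2.79 and 2.07% (change -2.62, adjusted p = 3.17e-13). In SPG7, MPV17 and NUP210 the upstream row changed by -3.25, -2.73 and -2.42 on the log2 scale. PRPF4B, a kinase of the spliceosome, went from 62.5, 63.9 and 60.2% to 17.7, 24.5 and 19.0% (change -2.68, adjusted p = 2.49e-12), with 38.7, 30.3 and 38.0% in AZ5576 and 40.5, 37.3 and 40.3% in YKL5124. This call turns with the pair of ends: at a minimum of 120 counts another pair was compared and the change was 2.94 (adjusted p = 3.9e-06). In SPG7 and PRPF4B the upstream end lies before the start of the downstream transcript, so that transcript does not span both ends.

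**Figure D5:**
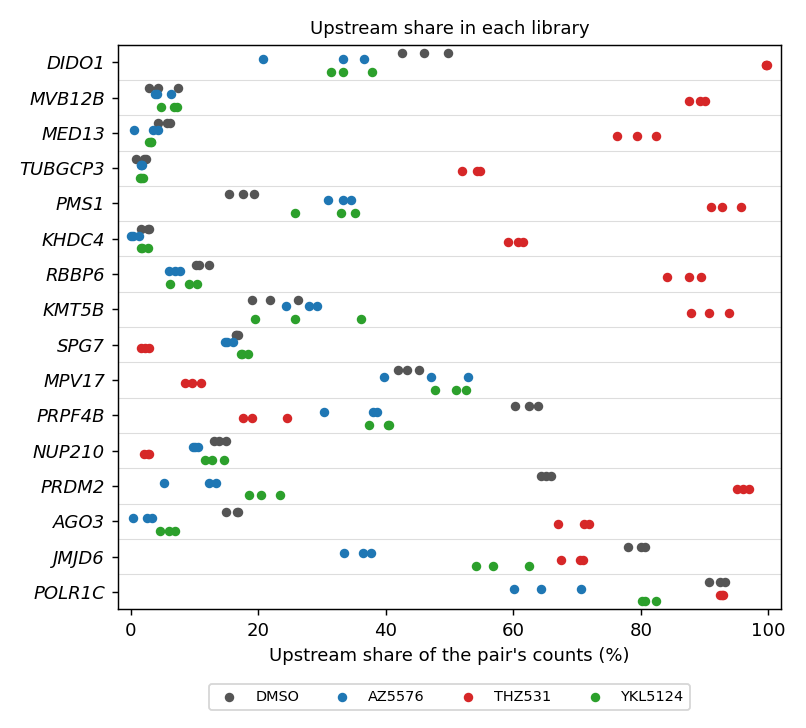
Upstream share of a pair's counts (percent, x axis) in each library for the genes with the largest shifts under THZ531 and the largest downstream shifts under AZ5576 (y axis), with 1 point per library and 1 colour per treatment. In PRDM2 the libraries lie at 5.19 to 13.4% in AZ5576, 64.3 to 65.9% in DMSO and 95.1 to 97.0% in THZ531.

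PRDM2, a zinc finger gene of the histone methyltransferase family (plus strand, chr1, 13700198 to 13825079), moved in opposite directions. Its upstream share was 65.9, 65.1 and 64.3% in DMSO, 23.4, 20.5 and 18.6% in YKL5124, 13.4, 5.19 and 12.3% in AZ5576 and 97.0, 95.1 and 96.0% in THZ531, and no 2 groups overlapped. The change was -3.83 (SE 0.26, adjusted p = 1.34e-11) under AZ5576, -2.84 (SE 0.25, adjusted p = 1.04e-08) under YKL5124 and 3.64 (SE 0.32, adjusted p = 1.34e-10) under THZ531. The downstream row of PRDM2 held 20 counts over the 3 THZ531 libraries. The log2 ratio of the pooled THZ531 counts was 4.56, with an exact binomial 95% interval of 3.91 to 5.28. The upstream row stood at 8.13, 6.79 and 7.37 CPM in DMSO and 2.40, 0.778 and 2.17 in AZ5576, and the downstream row at 4.22, 3.63 and 4.08 and 15.5, 14.2 and 15.4. AZ5576 replicate 2, the shallowest library, gave the lowest share in PRDM2, and the other AZ5576 libraries lay at 12.3 and 13.4%.

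AGO3, an Argonaute protein gene (plus strand, chr1, 35930718 to 36072500), had the same order of groups: 3.40, 0.395 and 2.64% in AZ5576, 6.05, 4.61 and 6.98% in YKL5124, 14.9, 16.9 and 16.6% in DMSO and 71.1, 71.9 and 67.1% in THZ531. The change was -2.87 under AZ5576 (adjusted p = 7.55e-09), -1.61 under YKL5124 (adjusted p = 1.5e-05) and 3.59 under THZ531 (adjusted p = 3.11e-14). The THZ531 changes of PRDM2 and AGO3 are not independent of the selection. With ends of at least 120 counts another pair stood for AGO3, and it was not called for AZ5576 (-0.44, adjusted p = 0.367) or YKL5124 (-0.57, adjusted p = 0.284). JMJD6, an oxygenase that acts on proteins, had 78.1, 80.1 and 80.7% in DMSO and 36.4, 37.7 and 33.4% in AZ5576 (change -2.82, adjusted p = 1.34e-11) and 62.4, 54.1 and 56.8% in YKL5124 (change -1.52, adjusted p = 5.72e-06). POLR1C, a subunit shared by RNA polymerases I and III, had 92.5, 93.1 and 90.7% in DMSO and 60.2, 70.6 and 64.4% in AZ5576 (change -2.70, adjusted p = 2.17e-11). PAICS, an enzyme of purine synthesis, shifted downstream under YKL5124, from 39.7, 34.9 and 37.3% to 14.4, 16.9 and 13.2% (change -1.78, adjusted p = 1.43e-06).

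The few upstream shifts under AZ5576 were smaller. GCC2, a golgin of the trans-Golgi network, went from 36.1, 40.3 and 25.4% to 65.2, 77.5 and 81.1% (change 2.54, adjusted p = 2.2e-06), and its downstream row fell by 2.47 on the log2 scale. At a minimum of 120 counts another pair stood for GCC2 and it was not called (0.45, adjusted p = 0.372). ZNF684, a zinc finger gene, went from 20.7, 27.7 and 18.5% to 57.1, 47.3 and 52.2% (change 2.00, adjusted p = 9.4e-08), and LIMK2, a kinase of cofilin, from 18.7, 10.9 and 15.8% to 36.6, 35.5 and 31.4% (change 1.53, adjusted p = 2.32e-05). ANKRD11, a chromatin regulator gene, rose from 49.6, 48.8 and 49.8% to 74.3, 71.5 and 74.5% in AZ5576, 73.0, 69.5 and 74.0% in YKL5124 and 89.6, 88.2 and 88.7% in THZ531, and none of the inhibitor libraries overlapped DMSO. Its change was 1.51 under AZ5576 (adjusted p = 1.6e-09) and 1.41 under YKL5124 (adjusted p = 1.87e-08), and another pair of its rows, at a minimum of 120 counts, missed the threshold under YKL5124 (1.54, adjusted p = 0.0555). CHAMP1, which acts in chromosome alignment, changed by 1.46 (adjusted p = 3.45e-05). The repressor E2F6 changed by 1.45 (adjusted p = 0.000299), and ELF2, an ETS factor, by 1.20 (adjusted p = 0.00281). With the minimum set at 150 counts in DMSO another pair stood for ELF2, and it gave -0.49 (adjusted p = 0.276). All genes named in this paragraph were also called toward the upstream end under THZ531. There the changes were 1.18 in GCC2, 3.29 in ZNF684, 2.26 in LIMK2 and 3.02 in ANKRD11. They were 1.32 in CHAMP1, 1.46 in E2F6 and 2.60 in ELF2, the last not independent of the selection. In GCC2 and ANKRD11 the upstream end lies before the start of the downstream transcript, which thus does not span both ends. In GCC2, ANKRD11, CHAMP1 and ELF2 the downstream end compared lies short of the last annotated end of the gene.

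Under YKL5124 the leading upstream shift was in RNPS1, a splicing and exon junction factor, from 9.67, 7.52 and 8.31% to 20.5, 22.3 and 20.0% (change 1.51, adjusted p = 4.06e-08). GAK, a kinase of clathrin uncoating, went from 14.4, 11.9 and 12.1% to 26.2, 29.1 and 28.3% (change 1.39, adjusted p = 1.99e-05). The upstream end of GAK, like that of GCC2, lies before the start of the downstream transcript. HNRNPA1, an RNA-binding protein gene with many processed pseudogenes whose reads may be shared, went from 94.7, 93.2 and 95.0% to 97.5, 97.7 and 97.6% (change 1.29, adjusted p = 1.5e-05). GCC2 changed by 1.26 (adjusted p = 0.00423), a call also lost at a minimum of 120 counts (adjusted p = 0.533). WASHC4, a subunit of the endosomal WASH complex, changed by 1.02 (adjusted p = 0.00275). ARHGAP26, which encodes a GTPase-activating protein, changed by 1.15 (adjusted p = 7.31e-05), and another pair of its rows, compared at a minimum of 120 counts, gave -0.35 (adjusted p = 0.49). Under THZ531 RNPS1 (2.26), ARHGAP26 (2.91), WASHC4 (1.32) and GCC2 (1.18) were also called upstream, and GAK (0.35) and HNRNPA1 (-0.33) were not called. Under AZ5576 RNPS1 (1.16), ARHGAP26 (1.08), HNRNPA1 (0.55) and GCC2 were called upstream, and GAK and WASHC4 were not called.

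Between inhibitors the largest differences were again in DIDO1, which stood 8.97 higher under THZ531 than under YKL5124 (adjusted p = 1.48e-17) on the log2 scale of the ratio, and whose difference of AZ5576 minus THZ531 was -9.08 (SE 0.39, adjusted p = 2.26e-17). MED13 differed by 6.94 between THZ531 and YKL5124 (adjusted p = 4.53e-19), and KHDC4 by -7.69 between AZ5576 and THZ531 (adjusted p = 1.99e-17), where its upstream row held 4 counts over the 3 AZ5576 libraries (0.675% of the pair, exact binomial 95% interval 0.184 to 1.72%). MPV17 was 3.06 higher under AZ5576 than under THZ531 (adjusted p = 2.26e-10). Between AZ5576 and YKL5124 the largest difference was in SKAP2, an adaptor of Src family kinases. Its share was 3.61, 1.46 and 4.26% in AZ5576, 16.4, 14.8 and 17.9% in YKL5124, 9.92, 8.87 and 9.16% in DMSO and 7.26, 3.92 and 4.70% in THZ531 (AZ5576 minus YKL5124 -2.46 (SE 0.24, adjusted p = 1.85e-07)). At a minimum of 120 counts another pair stood for SKAP2 and the difference was -0.18 (adjusted p = 0.885). PPP1R2, an inhibitor of protein phosphatase 1, differed by -1.45 (adjusted p = 0.000694). ZNF684 and GCC2 stood further upstream under AZ5576 than under YKL5124, by 1.28 (adjusted p = 0.000559) and 1.28 (adjusted p = 0.0266), and with DESeq2 the GCC2 difference was as large but missed the threshold (1.27, adjusted p = 0.0692). Another pair of GCC2 rows, compared at a minimum of 120 counts or of 150 counts in DMSO, gave 0.069 (adjusted p = 0.948) and 0.067 (adjusted p = 0.94).

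Lists of genes by role were read by counts and medians beside those of all pairs, where the median change under THZ531 was 0.22 and 32.0% were called upstream and 8.59% downstream. All pairs were not matched to a list for distance between the ends or gene length, which both went with the shift, and their part was not tested. Of 27 cleavage and polyadenylation genes 12 were members, and 7 shifted upstream and 2 downstream under THZ531 (median 0.50). Under AZ5576 none of the 12 shifted upstream and 6 shifted downstream (median -0.48, beside -0.18 for all pairs, of which 17.4% were called downstream). CSTF3, a subunit of cleavage stimulation factor, went from 20.5, 24.7 and 25.9% in DMSO to 72.4, 80.5 and 81.3% in THZ531, with 17.6, 16.9 and 18.4% in AZ5576. Its upstream row changed by 0.01 and its downstream row by -3.55 (adjusted p = 9.53e-24) under THZ531, so the ratio changed by 3.56 (SE 0.19, adjusted p = 1.41e-15) through the downstream end. PCF11, which links cleavage to termination, went from 30.5, 34.7 and 29.5% to 78.3, 72.0 and 81.0% (change 2.88, adjusted p = 3.8e-12). SYMPK, the scaffold symplekin, went the other way, from 8.71, 8.82 and 8.86% to 1.70, 2.02 and 2.27% (change -2.23, adjusted p = 2.35e-12), and its upstream end lies before the start of the distal transcript. Of 18 genes known for intronic polyadenylation 8 were members, among them RBBP6, CSTF3 and PCF11. Under THZ531 5 shifted upstream and none downstream (median 1.45), and under AZ5576 5 shifted downstream and none upstream (median -0.61). RBBP6, counted as shifted upstream under THZ531 in both lists, is a member through its THZ531 counts.

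Of 47 genes of homologous recombination and the DNA damage response 8 were members, and 5 shifted upstream and none downstream under THZ531 (median 1.29), beside 32.0% and 8.59% of all pairs (median 0.22). FANCA, of the Fanconi anaemia core complex, went from 41.2, 39.4 and 28.2% to 92.0, 90.2 and 90.4% (change 4.13, adjusted p = 1.41e-15), and its upstream row was higher by 3.27 on the log2 scale. BARD1, the partner of BRCA1, went from 28.8, 29.1 and 25.5% to 66.2, 64.9 and 64.5% (change 2.28, adjusted p = 1.49e-13). Every base of the upstream row of BARD1 lies in exons of the distal transcript. CHEK1, a checkpoint kinase, went from 54.3, 55.9 and 55.8% to 81.6, 79.1 and 81.5% (change 1.75, adjusted p = 1.13e-08).

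Of 26 genes listed as regulators in leukaemia 8 were members, and 7 shifted upstream and none downstream under THZ531 (median 3.25), beside 32.0% and 8.59% of all pairs (median 0.22), which were not matched for distance. Under AZ5576 and under YKL5124, 1 of the 8 shifted each way. ZEB2, a zinc finger repressor, had an upstream share of 84.1, 84.5 and 83.9% in DMSO and 98.8, 99.2 and 98.8% in THZ531 (change 4.14, adjusted p = 1.21e-17). RUNX1, a transcription factor of blood formation, went from 13.9, 10.1 and 10.3% to 70.2, 69.1 and 70.0%, and lay at 6.43, 6.42 and 7.78% in AZ5576 and 8.96, 10.1 and 8.54% in YKL5124. Its downstream row changed by -3.53 (adjusted p = 7.51e-24) and its upstream row by 0.62 (adjusted p = 0.000508) under THZ531, the second a call that was lost by library size alone (adjusted p = 0.0537) and with fly scaling (adjusted p = 0.199). CFLAR, an inhibitor of caspase-8 signalling, went from 15.4, 15.8 and 15.2% to 64.1, 66.2 and 65.0% (change 3.35, adjusted p = 1.36e-16), and its share was 6.75, 9.04 and 8.14% in YKL5124.

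Of 39 genes of polymerase II kinases and elongation 13 were members, with 5 upstream and 1 downstream under THZ531 (median 0.34), beside the same shares of all pairs. SUPT5H, a subunit of the elongation factor DSIF, went from 8.19, 8.88 and 8.11% to 21.3, 23.5 and 23.6% (change 1.69, adjusted p = 3.1e-10), and another pair of its rows, at a minimum of 120 counts, changed by 0.03 (adjusted p = 0.941). RPRD1A and RPRD1B, which bind the tail of the largest polymerase II subunit, changed by 1.33 (adjusted p = 9.55e-08) and 1.13 (adjusted p = 8.39e-06). The splicing list had 17 members of 33, with 3 upstream and 5 downstream under THZ531 and a median of -0.16, below the 0.22 of all pairs. HNRNPH1, a splicing regulator, changed by -0.73 (adjusted p = 0.000218) and SRSF10, a serine and arginine rich factor, by 0.69 (adjusted p = 0.000279). With the 2 ends that hold the most counts these were not called, at -0.19 (adjusted p = 0.187) for HNRNPH1 and -0.14 (adjusted p = 0.402) for SRSF10.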

How the data were processed

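The table the authors deposited holds raw read counts of 256726 human and 38374 fly rows in 12 libraries, made with a QuantSeq forward 3′ end kit, per the labels' protocols. Builds hg38 and dm6, Trim Galore 0.6.5, edgeR 3.32.1 and bcl2fastq 2.17.1.14 are named by the submitters' processing notes. Aligner, counter and strand setting: not given in the sources used here. All reads were counted, labelled or not. Of the human rows 251529 belong to transcripts found in GENCODE v29 (GRCh38), and the others are left out. A row was placed as a 3′ UTR segment of its transcript, or its last exon where no UTR is annotated. This reading was checked on rows with the same interval, of which 4916 of 4982 (98.7%) had identical counts, and on ordered rows of transcripts with several segments, of which 616 of 655 (94.0%) did. A further 982 transcripts, with 2556 rows, were not placed and are left out. Of a transcript with several rows, only the row at its 3′ end was used.

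Ends of 3852 pairs with at least 120 counts each, of all gene types, entered 1 edgeR 4.0.16 fit (R 4.3.3) with 24 columns, a term per library and end by group terms, so library size cancels. Levels were fitted over 49440 rows passing filterByExpr (minimum count 10) with TMM factors from 1 row per gene, and CPM are scaled alike. The SE is the change divided by the root of F. Alternatives used limma 3.58.1 and DESeq2 1.42.0, and figures Python with matplotlib. Data were simulated for THZ531 against DMSO over 3852 pairs, of which 200 were changed, fewer than were called in the data. There 20% of pairs changed 1.5-fold, 66% changed 2-fold and 100% changed 4-fold were called, 48% of those changed to 0.5-fold, and 4.88% of calls were unchanged pairs.

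Members and gene lists were chosen with earlier results of these data known. Genes named are, for each inhibitor against DMSO, the 8 largest upstream and 4 largest downstream shifts among called members with groups that do not overlap, at least 5% of the counts at each end in at least 1 group and no overlap with another gene; 2 each way between inhibitors; and per list the 3 members with the lowest adjusted p under THZ531. The 7 genes with printed sequences were picked from these after their values were seen. Replicate numbers share no stated culture or day. A marker list and a sequence are not reported here.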

Additional observations from a re-analysis of the deposited data

How the results depend on the processing

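The shift toward upstream ends under THZ531 and toward downstream ends under AZ5576 and YKL5124 kept its direction in every setting run. Left-out libraries gave 30.9 to 34.2% of members upstream and 6.12 to 10.8% downstream for THZ531, 13.6 to 17.2% downstream and 2.37 to 3.95% upstream for AZ5576, and 5.72 to 8.68% downstream and 1.64 to 2.70% upstream for YKL5124. Between inhibitors the ranges were 37.3 to 40.5% downstream and 3.16 to 5.20% upstream for AZ5576 against THZ531, 3.55 to 5.79% and 0.658 to 1.25% for AZ5576 against YKL5124, and 5.66 to 9.21% and 34.2 to 37.8% for THZ531 against YKL5124. Replicate numbers did not pair the libraries: deviations of libraries with the same number correlated at -0.29 to 0.22, and 5 of 12 libraries correlated best with their own number. With a replicate block 33.6% of members shifted upstream and 10.1% downstream under THZ531, 3.68% and 16.6% under AZ5576 and 2.70% and 8.36% under YKL5124, and between inhibitors 5.13% and 39.9% (AZ5576 against THZ531), 1.05% and 5.66% (AZ5576 against YKL5124) and 37.6% and 8.75% (THZ531 against YKL5124).

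With upstream rows outside exons of the downstream transcript, an alternative added after seeing the data that keeps 429 members, upstream and downstream shifts were 10.3% and 32.2% for AZ5576, 56.4% upstream for THZ531, 7.23% and 17.9% for YKL5124, 7.46% and 63.4% for AZ5576 against THZ531, 3.50% and 11.9% for AZ5576 against YKL5124 and 61.1% upstream for THZ531 against YKL5124. At a minimum of 120 counts, upstream shifts were 2.48% for AZ5576, 1.40% for YKL5124, 3.15% for AZ5576 against THZ531 and 0.647% for AZ5576 against YKL5124. DESeq2 gave 1.91%, 1.58%, 3.09% and 0.658% for these, 6.38% downstream for THZ531 and 3.36% downstream for AZ5576 against YKL5124, where a minimum of 150 counts in DMSO gave 8.69%. The median upstream share of THZ531 minus DMSO, 6.52 points, was 4.76 at 120 counts, 3.49 at 150 counts in DMSO, 8.21 with ends at least 5000 bases apart and 17.0 outside exons. The cause was not tested.

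Signs turned where another pair of rows stood for the gene: ELF2 under AZ5576 (-0.49, at 150 counts in DMSO), PRPF4B under THZ531 (2.94) and ARHGAP26 under YKL5124 (-0.35, both at 120 counts), and, with the 2 ends of most counts, SPG7 under THZ531 (0.11) and for AZ5576 against THZ531 (-0.26) and SRSF10 under THZ531 (-0.14). Levels turned with the scaling: the downstream end of KHDC4 (-0.064 with fly scaling) and NUP210 (-0.088 by library size, -0.17 with fly scaling) and the upstream end of RPRD1A (-0.0063 with fly scaling), all under THZ531. Leaving out pairs next to an A-rich stretch was not run, since no genome sequence was used here. In data simulated for THZ531 against DMSO over 3852 pairs, of which 200 were changed, 20% of 1.5-fold shifts were called. In the data 1232 pairs were called upstream under THZ531, so the adjustment differs and this rate need not hold there. Depth was not varied.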

Other observations

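The annotated class of the upstream transcript came with different shares of called genes under each inhibitor. Under THZ531 47.9% of 353 genes whose upstream transcript is protein-coding shifted upstream, against 33.8% of 382 with a processed transcript, 27.3% of 655 with a retained intron and 26.4% of 125 with a target of nonsense-mediated decay. Under AZ5576 the shares shifted downstream in these 4 classes were 23.5%, 10.5%, 19.2% and 3.20%, and under YKL5124 13.6%, 4.71%, 8.85% and 2.40%. The classes differ in place and distance, and their part in these values was not tested.

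By the share that the upstream end held in DMSO, under THZ531 26.4% of 371 genes with under 10% at the upstream end shifted upstream, 33.3% of 421 with 10 to 25%, 41.3% of 429 with 25 to 50% and 33.4% of 299 with more. These classes also include the members that passed the minimum through THZ531, and they were not tested against each other.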
